A study of Mus musculus with 16 samples.

Results

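The CD3 complex and the first steps of T cell receptor (TCR) signalling were followed through 9 mouse genes, Cd3e, Cd3d, Cd3g, Cd247, Lck, Zap70, Lat, Cd4 and Cd5, taken by name from the 52997 gene symbols of the count table and described in all 7 groups of the study. The study measured polyadenylated RNA in sorted regulatory T cells (Tregs, T cells that depend on the factor Foxp3, dampen inflammation and help tissues heal) and in whole skeletal muscle after injury with cardiotoxin (Ctx, a snake toxin that kills muscle fibres). The transgenic (Tg) Treg groups came from mTreg24 TCR-tg+ Foxp3 GFP+ (B6) mice, which carry a TCR transgene named for a muscle Treg, and were sorted as Vβ8+ Tregs, Vβ8 being a family of TCR beta segments: muscle 3 days after injury, spleen 3 days after injury and spleen of uninjured mice. The wild-type (WT) Treg groups came from mTreg24 TCR-tg- Foxp3 GFP+ (B6) mice and were sorted as total Tregs from muscle and from spleen, each 3 days after injury. For the WT spleen, the injury is stated in the series' design text and not in the sample's own label. Each Treg group had 2 libraries. The whole muscle groups, with 3 libraries each, were mTreg24 TCR-tg+ (B6) and mTreg24 TCR-tg- (B6) mice 8 days after injury. All mice were 6 to 8 weeks old and on the B6 background, and all Treg mice carried the Foxp3 GFP reporter. Genotype and sort gate changed together, so their effects cannot be told apart. The labels do not say whether libraries of a group came from separate mice, and p-values measure only the spread between these libraries, which may be technical.

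The TCR has almost no cytoplasmic tail, and it reaches the surface and signals only with the CD3 dimers (epsilon with delta, epsilon with gamma) and the CD247 (zeta) homodimer. After the receptor meets peptide and MHC, the kinase Lck, carried by the co-receptor CD4, phosphorylates the ITAM motifs of these chains. ZAP70 docks on the phosphorylated motifs and phosphorylates the membrane adaptor LAT, on which the downstream complexes assemble. CD5 is a surface glycoprotein that restrains TCR signalling, and its level on T cells is known to follow the strength of that signalling. In Tregs the TCR is needed for much of their activated programme, and a repertoire of expanded clones is a known feature of injured muscle.

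The 9 genes were covered by 814 to 13106 reads each in every Treg library, of library totals between 1986700 and 9116800. They were covered by 0 to 34 reads each in the whole muscle libraries, of totals between 5095999 and 7075420. The sorted cells carried the Treg label in all 10 libraries: Foxp3 lay between 1054 and 2314 CPM, and the summed Cd8a and Cd8b1 lay between 10.6 and 30.2 CPM. Levels are CPM, counts relative to library size, scaled by the TMM method unless the library total is named, in which case they are scaled by that total alone (all sums over gene lists are of this kind). The 2 WT muscle Treg libraries were the least alike of any group (chi-square per degree of freedom 31.9, against 5.9 to 9.92 in the other 6 groups). Calls are genes with a Benjamini-Hochberg adjusted p under 0.05 over all genes tested with edgeR's quasi-likelihood test, and changes are log2 values ± SE.

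The genes lie at the following places in GRCm38 (GENCODE M21). Cd3e (chr9:44998740-45009627, minus strand), Cd3d (chr9:44981786-44987339, plus strand) and Cd3g (chr9:44969572-44980431, minus strand) form 1 cluster, in which the starts of Cd3d and Cd3g stand 1355 bases apart and point away from each other. Cd247 (chr1:165788681-165877277, plus strand) and Zap70 (chr1:36761798-36782818, plus strand) share a chromosome. Lck lies at chr4:129548344-129573641 (minus strand), Cd4 at chr6:124864692-124888221 (minus strand), Lat at chr7:126363824-126369570 (minus strand) and Cd5 at chr19:10717116-10739002 (minus strand). Of the exon bases of Cd247, 56.4% are shared with Pou2f1 on the opposite strand. The library kit does not mark strand, so reads from that stretch cannot be told apart. Pou2f1 was credited with 83 to 234 reads per Treg library, against 1013 to 5233 reads for Cd247.

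The promoters of the 4 CD3 chain genes and of Cd5 are shown because these chains assemble into 1 complex, and because Cd5 had the largest changes of the 9 genes between tissues. Each run is 300 bases (250 before to 50 after the RefSeq start, GRCm38.p6), read 5′ to 3′ on the gene's own strand, and capitals mark the E-box letters CAGGTG or their reverse complement CACCTG.
Cd3g (chr9:44980382-44980681, minus strand): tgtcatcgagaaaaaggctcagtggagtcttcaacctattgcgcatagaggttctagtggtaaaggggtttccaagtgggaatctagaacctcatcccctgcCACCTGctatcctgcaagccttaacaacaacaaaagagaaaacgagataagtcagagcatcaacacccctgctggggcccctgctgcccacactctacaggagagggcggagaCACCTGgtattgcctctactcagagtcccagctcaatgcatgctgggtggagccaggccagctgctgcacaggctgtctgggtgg
Cd3d (chr9:44981536-44981835, plus strand): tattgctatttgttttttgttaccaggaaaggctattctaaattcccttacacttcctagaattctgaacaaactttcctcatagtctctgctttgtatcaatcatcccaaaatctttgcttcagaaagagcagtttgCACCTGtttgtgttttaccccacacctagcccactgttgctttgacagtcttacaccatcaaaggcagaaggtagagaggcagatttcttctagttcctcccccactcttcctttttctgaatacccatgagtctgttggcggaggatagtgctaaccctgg
Cd3e (chr9:45009562-45009861, minus strand): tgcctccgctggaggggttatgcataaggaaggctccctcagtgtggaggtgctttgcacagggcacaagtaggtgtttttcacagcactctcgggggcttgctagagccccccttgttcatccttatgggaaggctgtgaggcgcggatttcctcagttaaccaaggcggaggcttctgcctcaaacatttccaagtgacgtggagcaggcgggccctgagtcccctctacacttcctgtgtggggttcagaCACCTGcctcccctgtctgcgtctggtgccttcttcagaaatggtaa
Cd247 (chr1:165788431-165788730, plus strand): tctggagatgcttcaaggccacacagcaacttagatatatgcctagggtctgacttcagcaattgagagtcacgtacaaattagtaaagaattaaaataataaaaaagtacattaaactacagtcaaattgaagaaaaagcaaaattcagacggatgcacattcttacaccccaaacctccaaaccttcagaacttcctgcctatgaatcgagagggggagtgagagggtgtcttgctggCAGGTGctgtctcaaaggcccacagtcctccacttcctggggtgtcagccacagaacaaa
Cd5 (chr19:10738925-10739224, minus strand): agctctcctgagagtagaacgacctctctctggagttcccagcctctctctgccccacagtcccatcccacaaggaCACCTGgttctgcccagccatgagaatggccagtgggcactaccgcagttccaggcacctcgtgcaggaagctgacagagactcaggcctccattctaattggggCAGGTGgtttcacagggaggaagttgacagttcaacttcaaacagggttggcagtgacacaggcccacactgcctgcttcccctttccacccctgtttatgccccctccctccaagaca
RefSeq listed 11 promoters for 8 of the 9 genes and none for Cd4. Of these 11, 9 held the E-box letters on either strand, and 7 of the 8 genes had at least 1 such promoter, Lat being the exception. These letters were held by 20.22% of all 32817 listed promoters and by 22.6% of the 26994 genes listed. E-boxes are the sites of basic helix-loop-helix factors, such as those of the E protein family, which act in T cells. E-box letters were 1 of 5 motifs searched on both strands. The RUNX letters TGTGGT stood in 3 of the 11 promoters, against 16.76% of all promoters. The letters GGGCGG, known as the GC box, stood in 2 of the 11, against 35.63% of all. The ETS core CCGGAA stood in 1 of the 11, against 14.88% of all. The TATA box letters TATAAA stood in 0 of the 11, against 13.62% of all. Such matches are a description of letters and not of binding.

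The CD3 chain transcripts differed little between the 5 Treg groups. Over the 10 libraries the highest value was 1.29 times the lowest for Cd3e, 1.39 times for Cd3d, 1.39 times for Cd3g and 1.61 times for Cd247. For the signalling genes that ratio was 1.23 for Lck, 1.47 for Zap70 and 1.31 for Lat, and for the surface proteins it was 1.43 for Cd4 and 1.89 for Cd5. Among the 11812 tested genes with reads in all 10 libraries the median ratio was 2.39, and 37.5% of them stayed under 2, as all 9 genes did. Genes with few reads carry more counting noise, so that background is not matched for level.

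**Figure D1:**
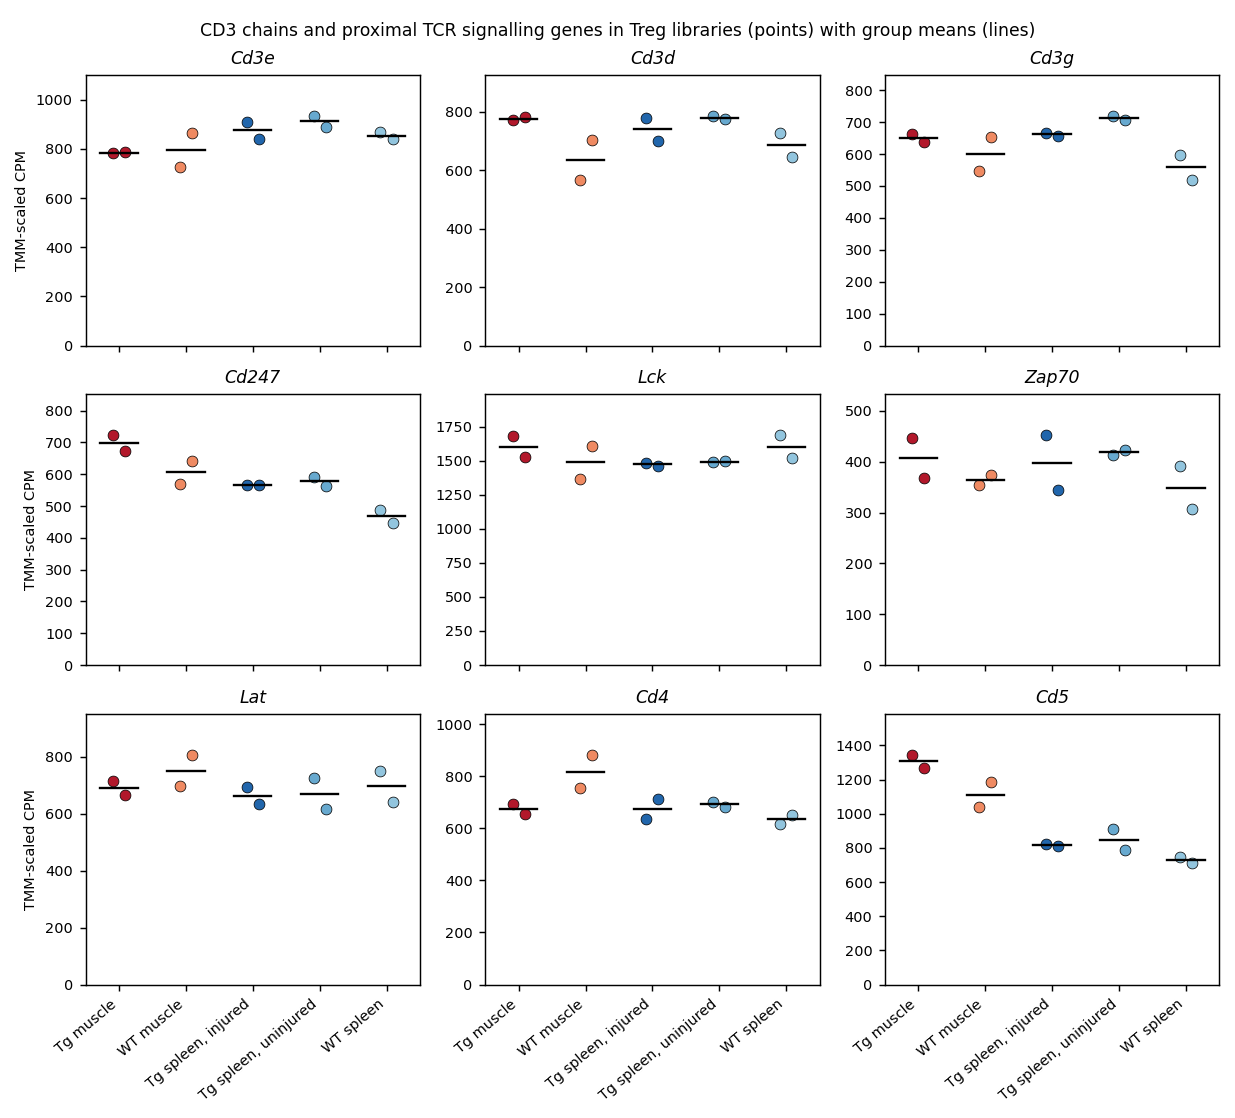
TMM-scaled CPM (vertical axes, from 0) of the 9 genes in the 10 Treg libraries (points) with group means (lines), Tg muscle, WT muscle, injured Tg spleen, uninjured Tg spleen and WT spleen from left to right. Cd5 stands between 1039 and 1344 CPM in the 4 muscle libraries and between 712 and 907 CPM in the 6 spleen libraries, while the muscle and spleen libraries overlap for each of the other 8 genes. The share of all tested genes without such overlap was not counted.

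Cd3e encodes the epsilon chain, which sits in both CD3 dimers. It had 783 and 786 CPM in Tg muscle Tregs and 727 and 866 CPM in WT muscle Tregs. It had 909 and 842 CPM in injured Tg spleen, 935 and 891 CPM in uninjured Tg spleen, and 868 and 840 CPM in WT spleen. All 4 muscle values but one lay below all 6 spleen values. The change passed in neither genotype (-0.16 ± 0.12, adjusted p 0.522 with edgeR, for Tg muscle over injured Tg spleen, and -0.10 ± 0.12, adjusted p 0.636, for WT muscle over WT spleen).

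Cd3d encodes the delta chain, a partner of epsilon. It had 771 and 781 CPM in Tg muscle, 567 and 704 CPM in WT muscle, 780.0 and 701 CPM in injured Tg spleen, 786 and 774 CPM in uninjured Tg spleen, and 729 and 645 CPM in WT spleen. The lowest value was that of the first WT muscle library, and the groups of the 2 tissues overlapped. Cd3g encodes the gamma chain, the other partner of epsilon. It had 663 and 639 CPM in Tg muscle, 546 and 653 CPM in WT muscle, 666 and 657 CPM in injured Tg spleen, 719.5 and 705 CPM in uninjured Tg spleen, and 598 and 519 CPM in WT spleen. In the order of group means, Cd3d and Cd3g were each highest in uninjured Tg spleen, and neighbouring groups overlapped, with the exception of uninjured over injured Tg spleen for Cd3g.

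Cd247 encodes the zeta chain, which carries most of the complex's ITAM motifs. It had 722 and 674 CPM in Tg muscle and 569 and 642 CPM in WT muscle. It had 565 and 565 CPM in injured Tg spleen, 593 and 564 CPM in uninjured Tg spleen, and 487 and 447 CPM in WT spleen. Within each genotype the muscle values lay above those of the injured spleen, without overlap. The WT difference passed (0.38 ± 0.12, 95% interval 0.11 to 0.64, adjusted p 0.0488 with edgeR), and the Tg difference did not (0.31 ± 0.12, interval 0.05 to 0.56, adjusted p 0.159). The WT call was held in 5 of 13 alternative settings, with changes between 0.18 and 0.47 and adjusted p between 0.0236 and 0.273. The difference between the 2 tissue changes was -0.07 ± 0.17 (adjusted p 0.957).

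Per kilobase of exon, taken over all annotated exons of a gene, Cd3d was the highest of the 4 chains, with a median of 413.3 CPM per kb over the 10 Treg libraries. Cd3e had 209.4, Cd3g 200.3 and Cd247 106.4 CPM per kb. Without that adjustment Cd3e stood above Cd3d (medians 854.3 and 750.2 CPM). Their order thus rests on these lengths, which may differ from those of the transcripts expressed. The place of Cd247 is uncertain, since over the exon bases it does not share with Pou2f1 the same reads would make 244.1 CPM per kb, and how reads in the shared stretch were counted is not given in the sources used here. The shares below use the full exon length and carry the same limit. The share of each chain in the length-adjusted sum of the 4 stayed within 40.9% to 45.6% for Cd3d, 20.1% to 25.6% for Cd3e and 19.8% to 22.3% for Cd3g. The Cd247 share was 14.2% and 13.4% in Tg muscle and 14.0% and 13.1% in WT muscle. It was 11.0% and 11.8% in injured Tg spleen, 11.2% and 11.0% in uninjured Tg spleen, and 10.3% and 10.4% in WT spleen. Every muscle share of Cd247 lay above every spleen share, a description that was not tested separately and that does not depend on the scaling between libraries. The lengths are those of GENCODE M21 exon unions; the authors' annotation is not given in the sources used here.

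**Figure D2:**
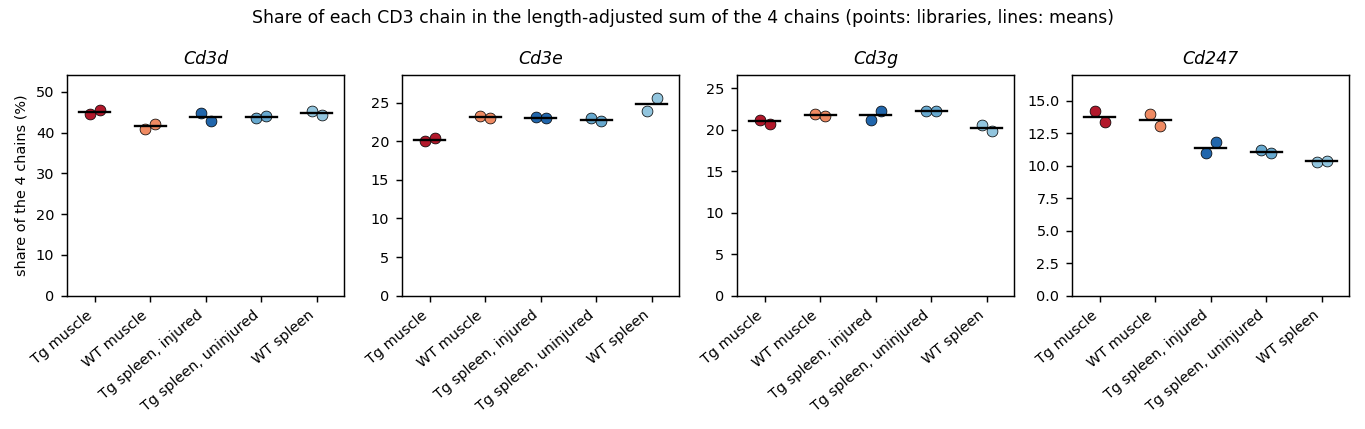
Share (%) of each CD3 chain in the length-adjusted sum of Cd3d, Cd3e, Cd3g and Cd247 in the 10 Treg libraries (points) with group means (lines); each vertical axis starts at 0. The Cd247 share is 13.1% to 14.2% in the 4 muscle libraries and 10.3% to 11.8% in the 6 spleen libraries.

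Lck, the kinase that starts the cascade, was the most abundant of the 9 transcripts per kilobase (median 515.8 CPM per kb). It had 1684 and 1524 CPM in Tg muscle, 1368 and 1608 CPM in WT muscle, 1485 and 1464 CPM in injured Tg spleen, 1487 and 1499 CPM in uninjured Tg spleen, and 1686 and 1522 CPM in WT spleen. The groups overlapped across tissues and genotypes. Zap70, the kinase recruited to the CD3 and zeta chains, had a median of 128.0 CPM per kb. It ranged between 369 and 446 CPM in Tg muscle, 353 and 375 CPM in WT muscle, 344 and 452 CPM in injured Tg spleen, 412 and 424 CPM in uninjured Tg spleen, and 307 and 391 CPM in WT spleen. Lat, the adaptor that ZAP70 phosphorylates, had a median of 250.8 CPM per kb and lay between 664 and 715 CPM in Tg muscle, 695 and 806 CPM in WT muscle, 633 and 693 CPM in injured Tg spleen, 615 and 724 CPM in uninjured Tg spleen, and 641 and 750.5 CPM in WT spleen. In all 6 comparisons of Treg groups the changes of Lck, Zap70 and Lat were between -0.12 and 0.23, and none passed.

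Cd4 encodes the co-receptor that binds MHC class II and brings Lck to the receptor. It had 694 and 655 CPM in Tg muscle and 754 and 882 CPM in WT muscle. It had 636 and 711 CPM in injured Tg spleen, 703 and 683 CPM in uninjured Tg spleen, and 616 and 652 CPM in WT spleen. The 2 WT muscle values were the highest of the 10. The change of WT muscle over WT spleen was 0.37 ± 0.12 and missed the threshold (adjusted p 0.0591 with edgeR), with 2 of 13 alternatives passing. In Tg mice muscle over injured spleen was 0.00 ± 0.12 (interval -0.26 to 0.27), and the difference between the 2 tissue changes was -0.36 ± 0.18 (adjusted p 0.646).

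Cd5 was higher in muscle Tregs than in spleen Tregs in both genotypes. It had 1344 and 1267 CPM in Tg muscle and 1039 and 1183 CPM in WT muscle. It had 825 and 809.9 CPM in injured Tg spleen, 907 and 788 CPM in uninjured Tg spleen, and 749 and 712 CPM in WT spleen. All 4 muscle libraries lay above all 6 spleen libraries, and the Tg muscle values lay above the WT muscle values. How many of all tested genes separate the tissues in this way was not counted. Muscle over injured spleen was 0.68 ± 0.12 in Tg mice (interval 0.41 to 0.94, adjusted p 0.00269 with edgeR), and muscle over spleen was 0.61 ± 0.12 in WT mice (interval 0.34 to 0.87, adjusted p 0.00382). Both calls were held in all 13 alternative settings each, with changes between 0.48 and 0.72 in Tg mice and between 0.41 and 0.71 in WT mice. The difference between the 2 tissue changes was 0.07 ± 0.17 (interval -0.30 to 0.44, adjusted p 0.957).

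Of the 9 genes, 1 (Cd5) was called higher and 0 lower for Tg muscle over injured Tg spleen, where 4.83% of the 13188 tested genes were called higher and 2.55% lower. For WT muscle over WT spleen 2 (Cd5 and Cd247) were called higher and 0 lower, against 9.38% higher and 6.87% lower of all tested genes. The median change of the 9 was 0.06 in Tg mice and 0.10 in WT mice, against -0.04 and -0.04 over all tested genes. All 9 intervals lay within 1 log2 unit of 0 in both tissue comparisons, between -0.42 and 0.94 in Tg mice and between -0.39 and 0.87 in WT mice.

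**Figure D3:**
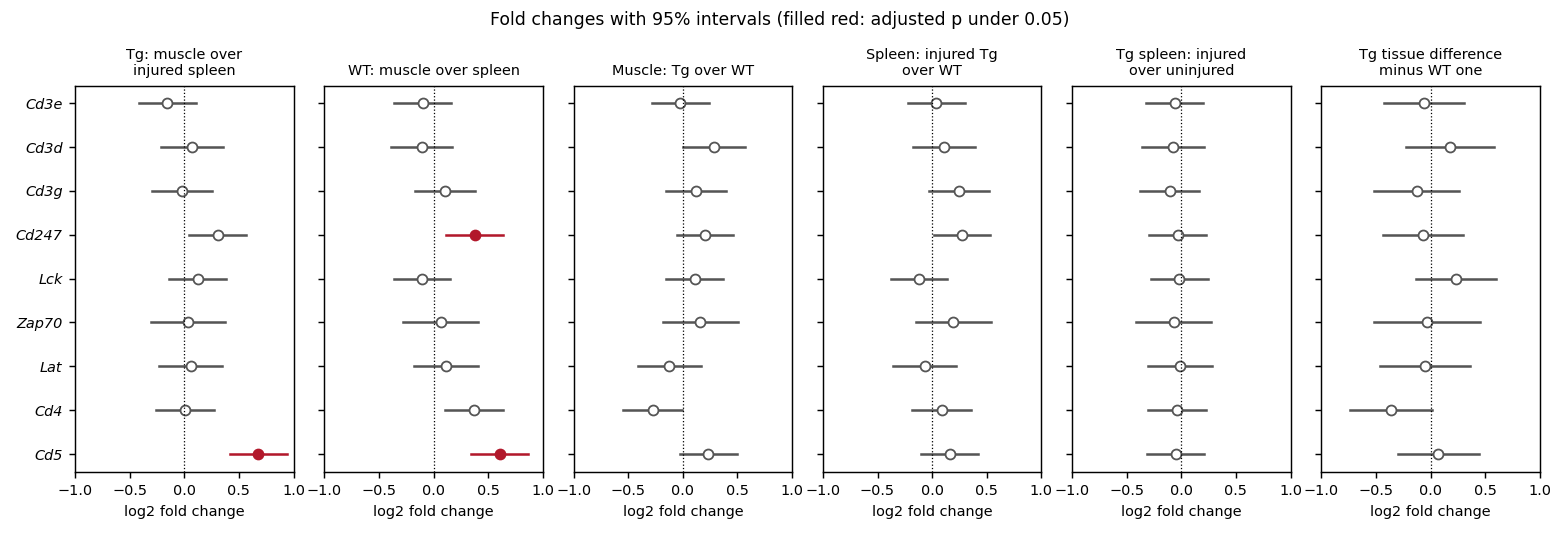
Log2 fold changes (points) with 95% intervals (lines) of the 9 genes in the 6 comparisons of Treg groups, filled red where the adjusted p was under 0.05. The filled points are Cd5 in both tissue comparisons (0.68 in Tg and 0.61 in WT mice) and Cd247 in WT mice (0.38).

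The tissue comparisons depended on scaling. With library totals in place of TMM, the median change of all genes moved to -0.24 in Tg mice and -0.23 in WT mice, and the share of calls that were higher in muscle moved to 38.9% (65.5% with TMM) in Tg mice and to 37.7% (57.7% with TMM) in WT mice. Under that scaling Cd5 still passed (0.48 in Tg and 0.41 in WT mice, adjusted p 0.0128 and 0.0171), Cd247 did not (0.11 and 0.18), and the changes of Cd3e were -0.36 and -0.29 (adjusted p 0.0525 and 0.0745). Genes induced by tissue digestion and handling also differed with tissue: the sum of 12 such genes (Fos, Fosb, Jun, Junb, Egr1, Atf3, Dusp1, Ier2, Hspa1a, Hspa1b, Hsp90aa1 and Nr4a1, several of which TCR signals also induce) was 8407 to 10954 CPM in the 4 muscle libraries and 1299 to 1698 CPM in the 6 spleen libraries. Of these, 10 of 12 (83.3%) were called higher in each genotype and none lower, against 4.83% of all tested genes called higher in Tg and 9.38% in WT mice. Egr1 lay between 89.9 and 116 CPM by library total in muscle and between 80.4 and 144 CPM in spleen libraries. Their part in the changes of Cd5, Cd247 and the pathway genes was not tested. Signal of other cell types was low. The summed markers were 4.76 to 19.0 CPM in muscle against 44.7 to 117.7 CPM in spleen libraries for macrophages, and 0 to 0.676 against 0.694 to 10.1 CPM for NK cells (Ncr1, Klra8, Eomes and Klre1 at 0 in muscle). Muscle fibre genes were 11.0 to 12.6 CPM in muscle and 7.33 to 17.6 CPM in spleen libraries. In bulk samples a lower level in each cell and a smaller share of expressing cells cannot be told apart.

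The 9 genes differed little between genotypes. In muscle, Tg over WT changes ran between -0.28 for Cd4 and 0.29 for Cd3d, with intervals between -0.54 and 0.57. In spleen, injured Tg over WT changes ran between -0.12 for Lck and 0.27 for Cd247, with intervals between -0.38 and 0.54. None of the 9 passed in muscle, where 0.318% of all tested genes were called, and none passed in spleen, where 1.3% were called. The medians of the 9 were 0.12 in muscle and 0.11 in spleen, against -0.01 and 0.00 over all genes. Cd3d and Cd4 in muscle and Cd247 in spleen had unadjusted p of 0.0463, 0.0419 and 0.0406 with edgeR, and the other 15 of these 18 changes were above 0.05.

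None of the 9 was called between spleens of injured and uninjured Tg mice. Injured over uninjured Tg spleen changes ran between -0.11 for Cd3g and -0.01 for Lat, with intervals between -0.41 and 0.28. No gene of the 13188 was called in that comparison (0.0%), also with DESeq2 and with limma-voom, and 236 had an unadjusted p under 0.05. The tissue change of Tg mice minus that of WT mice passed for none of the 9 (intervals between -0.74 and 0.59), with 0.136% of all genes called.

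The antigen-binding chains behaved otherwise than the CD3 chains. Trac encodes the constant region of the TCR alpha chain, and Trbc1 and Trbc2 encode those of the beta chain; the 2 beta genes are nearly identical, so reads may be shared between them. Trac had 2855 and 3436 CPM in Tg muscle and 915 and 1169 CPM in WT muscle Tregs. It had 1140 and 1226 CPM in injured Tg spleen, 1250 and 1587 CPM in uninjured Tg spleen, and 631 and 609 CPM in WT spleen. The Tg values were above the WT values within each tissue, without overlap. Tg over WT was 1.59 ± 0.15 in muscle (adjusted p 6.91e-05 with edgeR) and 0.93 ± 0.15 in spleen (adjusted p 0.00521, held in 10 of 12 alternatives). Trbc2 had 7079 and 7667 CPM in Tg muscle against 532 and 600 CPM in WT muscle, and 5780 and 5843 CPM in injured Tg spleen against 917 and 839 CPM in WT spleen. Tg over WT was 3.70 ± 0.15 in muscle (adjusted p 1.05e-09) and 2.73 ± 0.14 in spleen (adjusted p 4.56e-08). Trbc1 had 348 and 410.4 CPM in Tg muscle against 511 and 532 CPM in WT muscle (-0.46 ± 0.12, adjusted p 0.194).

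Counted per read, the 3 constant regions together stood at 3.5 and 4.0 times the reads of the 4 CD3 chains in Tg muscle and at 0.813 and 0.803 times in WT muscle. The ratio was 2.53 to 2.91 in the 4 Tg spleen libraries and 0.812 and 0.86 in WT spleen. The CD3 chains themselves summed to 2644 and 2711 CPM by library total in Tg muscle against 2305 and 2562 in WT muscle, and to 2914 to 3086 in Tg spleen against 2580 and 2807 in WT spleen. Transcripts of Trac and Trbc2 thus differed with genotype in both tissues, those of Trbc2 several-fold. Trbc1 passed in neither tissue, and the CD3 chains did not pass. Between tissues, Trac was higher in muscle in Tg mice (1.41 ± 0.15, adjusted p 2.91e-05) and in WT mice (0.75 ± 0.15, adjusted p 0.0037). Trbc2 fell by 0.63 in WT muscle (adjusted p 0.00589) and was 0.34 ± 0.14 in Tg muscle over injured Tg spleen (adjusted p 0.155). Trbc1 was called lower in Tg muscle (-0.462, held in 8 of 12 alternatives) and was not called in WT muscle (-0.305). The sum of 6 gamma-delta T cell markers was 87.7 to 190.2 CPM by library total in the 6 Tg and 2.81 to 18 CPM in the 4 WT Treg libraries. In Tg muscle that sum was made up of Trdc (93.5 and 119 CPM) and Trdv4 (64.5 and 71.2 CPM), segments of the TCR alpha and delta locus. The gamma chain genes Tcrg-C1, Tcrg-C2 and Tcrg-C4 were at 0 in both Tg muscle libraries, and Sox13 was at 0.69 and 0 CPM there. In the 4 Tg spleen libraries Trdc had 50.5 to 116 CPM and Trdv4 had 18.7 to 29.4 CPM. The 3 gamma chain genes had 2.77 to 11.1 CPM each in Tg spleen, against 0 to 5.11 CPM in WT spleen, and Sox13 was at 0 in Tg spleen.

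Further along the pathway, 64 genes in 5 lists (kinases and phosphatases, adaptors, effectors of the LAT complex, negative regulators, and surface partners) were examined, of which 63 were tested. For Tg muscle over injured Tg spleen 13 were called higher and 2 lower (median 0.15), and for WT muscle over WT spleen 19 were called higher and 8 lower (median 0.27). The called share was 23.8% in Tg and 42.9% in WT mice, against 7.38% and 16.2% of all tested genes. The medians over all tested genes were -0.04 in both. The lists were chosen with earlier results of these data known. The shares of all tested genes, here and for each list below, are not matched for level. An excess over them is thus a description and not a test of the pathway. The libraries of the 2 comparisons do not overlap, and 13 genes were called in both, all in the same direction, out of 15 in Tg and 27 in WT mice. They were Cd2, Cd27, Cd28, Cd6, Cish, Grb2, Lcp2, Malt1, Prkcq, Ptpn22, Sh2d2a, Sla and Tec. Both comparisons come from 1 fit, and the overlap over all tested genes was not counted. The 13 and their shared direction thus have no background here and cannot be called particular to this pathway. With library totals in place of TMM the counts were 7 higher and 8 lower in Tg mice and 13 higher and 11 lower in WT mice, so the balance of directions rests on the scaling. Leaving out 1 library at a time left 6 to 8 higher and 1 to 5 lower in Tg mice, with 8 higher and 5 lower without the second Tg muscle library. In WT mice it left 9 to 18 higher and 3 to 6 lower. Of the calls, 6 of 15 in Tg mice and 11 of 27 in WT mice were held in all alternatives. Among the genes named in the next paragraphs, Malt1, Cd6, Sla, Cish and Sh2d2a were held throughout in both genotypes, Cd27 in Tg mice, and Prkcq, Ptpn6 and Ubash3b in WT mice. In Tg mice Tec and Ptpn22 passed in 8 of 13 alternatives, Grb2 in 9, Grap2 in 10, and Prkcq and Cd2 in 11. In WT mice Cd28 and Cd48 passed in 8 of 13, Tec and Grb2 in 9, Themis, Nfatc3 and Dok1 in 10, and Syk in 9 of 12.

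Among kinases and phosphatases 3 of 12 were called higher and 0 lower in Tg muscle, and 3 higher and 3 lower in WT muscle. Tec, a Tec-family kinase acting on phospholipase C gamma, had 36.6 and 33.9 CPM in Tg muscle against 14.7 and 18.2 CPM in injured Tg spleen (1.10 ± 0.28, adjusted p 0.0273 with edgeR), and was 1.09 ± 0.28 in WT mice (adjusted p 0.0169). Tec was 34.1 and 24.1 CPM in the uninjured Tg spleen. In Tg mice Ptpn22, a phosphatase that dephosphorylates Lck and ZAP70, rose by 0.61. In WT mice Ptpn6, encoding the phosphatase SHP-1, fell by 0.90 (adjusted p 0.0019). Syk, the relative of ZAP70 used in B and myeloid cells, was called lower in WT muscle at 0.23 and 0 CPM against 2.4 and 7.18 CPM in WT spleen, a range of a few reads. Txk, another Tec-family kinase, had the largest uncalled change in Tg mice (-0.65, adjusted p 0.0723), and Ptprc, encoding the phosphatase CD45, in WT mice (0.29, adjusted p 0.144).

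Among adaptors 5 of 17 tested were called higher and 0 lower in Tg muscle (29.4%, against 7.38% of all tested genes). In WT muscle 6 were higher and 2 lower (47.1%, against 16.2% of all). Grap2, encoding the adaptor GADS that links LAT to SLP-76, had 54.2 and 35.8 CPM in Tg muscle against 15.9 and 19.1 CPM in injured Tg spleen (1.36 ± 0.30, adjusted p 0.0116 with edgeR). Sh2d2a, encoding the T cell adaptor TSAd that binds Lck, had 854 and 926 CPM against 435 and 407 CPM (1.08 ± 0.14, adjusted p 0.000128). Grb2, which couples LAT to Ras activation, rose by 0.85 in Tg mice and by 0.88 in WT mice. Sla, encoding SLAP, an adaptor that targets the CD3 complex for degradation, had 1014 and 1168 CPM in WT muscle against 481 and 455 CPM in WT spleen (1.22 ± 0.13, adjusted p 1.92e-05), and was 0.80 in Tg mice. Themis, a regulator of TCR signalling in thymocytes, fell by 1.13 in WT mice (adjusted p 0.018). The largest uncalled change was that of Lime1, a transmembrane adaptor, in both genotypes (0.79, adjusted p 0.516, in Tg mice and 0.98, adjusted p 0.33, in WT mice).

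Among LAT effectors 1 of 16 was called higher and 1 lower in Tg muscle (12.5%, against 7.38% of all tested genes). In WT muscle 2 were higher and 2 lower (25.0%, against 16.2% of all). Malt1, a paracaspase upstream of NF-κB, had 197 and 251 CPM in Tg muscle against 67.5 and 85.7 CPM in injured Tg spleen, and 213 and 229 CPM in WT muscle against 61.1 and 54.9 CPM in WT spleen. The changes were 1.55 ± 0.18 in Tg mice (adjusted p 4.33e-05 with edgeR) and 1.94 ± 0.18 in WT mice (adjusted p 5.37e-06). Prkcq, encoding protein kinase C theta, a kinase upstream of NF-κB in T cells, moved the other way. It had 214 and 308 CPM in Tg muscle against 387 and 459.8 CPM in injured Tg spleen (fell by 0.70, adjusted p 0.0165), and 312 and 271 CPM in WT muscle against 523 and 525 CPM in WT spleen (fell by 0.85, adjusted p 0.00254). Nfatc3, an NFAT transcription factor, fell by 0.83 in WT mice (adjusted p 0.0258). Orai1, the pore of the store-operated calcium channel, had the largest uncalled change in both (1.21, adjusted p 0.271, in Tg mice and 0.90, adjusted p 0.339, in WT mice).

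Among negative regulators 2 of 12 were called higher and 0 lower in Tg muscle (16.7%, against 7.38% of all tested genes). In WT muscle 5 were higher and 0 lower (41.7%, against 16.2% of all). Cish, encoding a SOCS-family protein induced by cytokines and the TCR, had 1186 and 1177 CPM in Tg muscle against 471 and 353 CPM in injured Tg spleen (1.52 ± 0.16, adjusted p 2.77e-05 with edgeR), and rose by 0.96 in WT mice. Cd6, a relative of Cd5 encoded close to it, had 2160 and 1980 CPM in Tg muscle against 1136 and 1107 CPM in injured Tg spleen (0.88 ± 0.15, adjusted p 0.00151), and 1457 and 1965 CPM in WT muscle against 1006 and 887 CPM in WT spleen (0.85 ± 0.15, adjusted p 0.00122). In WT mice Ubash3b, encoding the phosphatase STS-1 that acts on ZAP70, had 190.3 and 208.9 CPM in muscle against 106 and 71.6 CPM in spleen (adjusted p 0.000793), and Dok1, an adaptor that recruits Ras inhibitors, rose by 0.86 (adjusted p 0.0123). Socs1, an inhibitor of cytokine signalling, had the largest uncalled change in both (-0.82, adjusted p 0.489, in Tg mice and -0.99, adjusted p 0.295, in WT mice).

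Among 7 surface partners, with Cd6 counted here as well, 3 were called higher and 1 lower in Tg muscle (57.1%, against 7.38% of all tested genes). In WT muscle 4 were higher and 1 lower (71.4%, against 16.2% of all). Cd2, an adhesion receptor that binds Cd48 in mice, rose by 0.63 in Tg mice. Cd28, the main co-stimulatory receptor, and Cd48 rose by 0.59 and 0.56 in WT mice. Cd27, a co-stimulatory receptor that is lost on differentiated T cells, had 340 and 315 CPM in Tg muscle against 616 and 535 CPM in injured Tg spleen (fell by 0.81, adjusted p 0.00179 with edgeR). The largest uncalled changes were those of Spn (CD43) in Tg mice (-0.27, adjusted p 0.336) and Thy1 in WT mice (0.27, adjusted p 0.236).

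**Figure D4:**
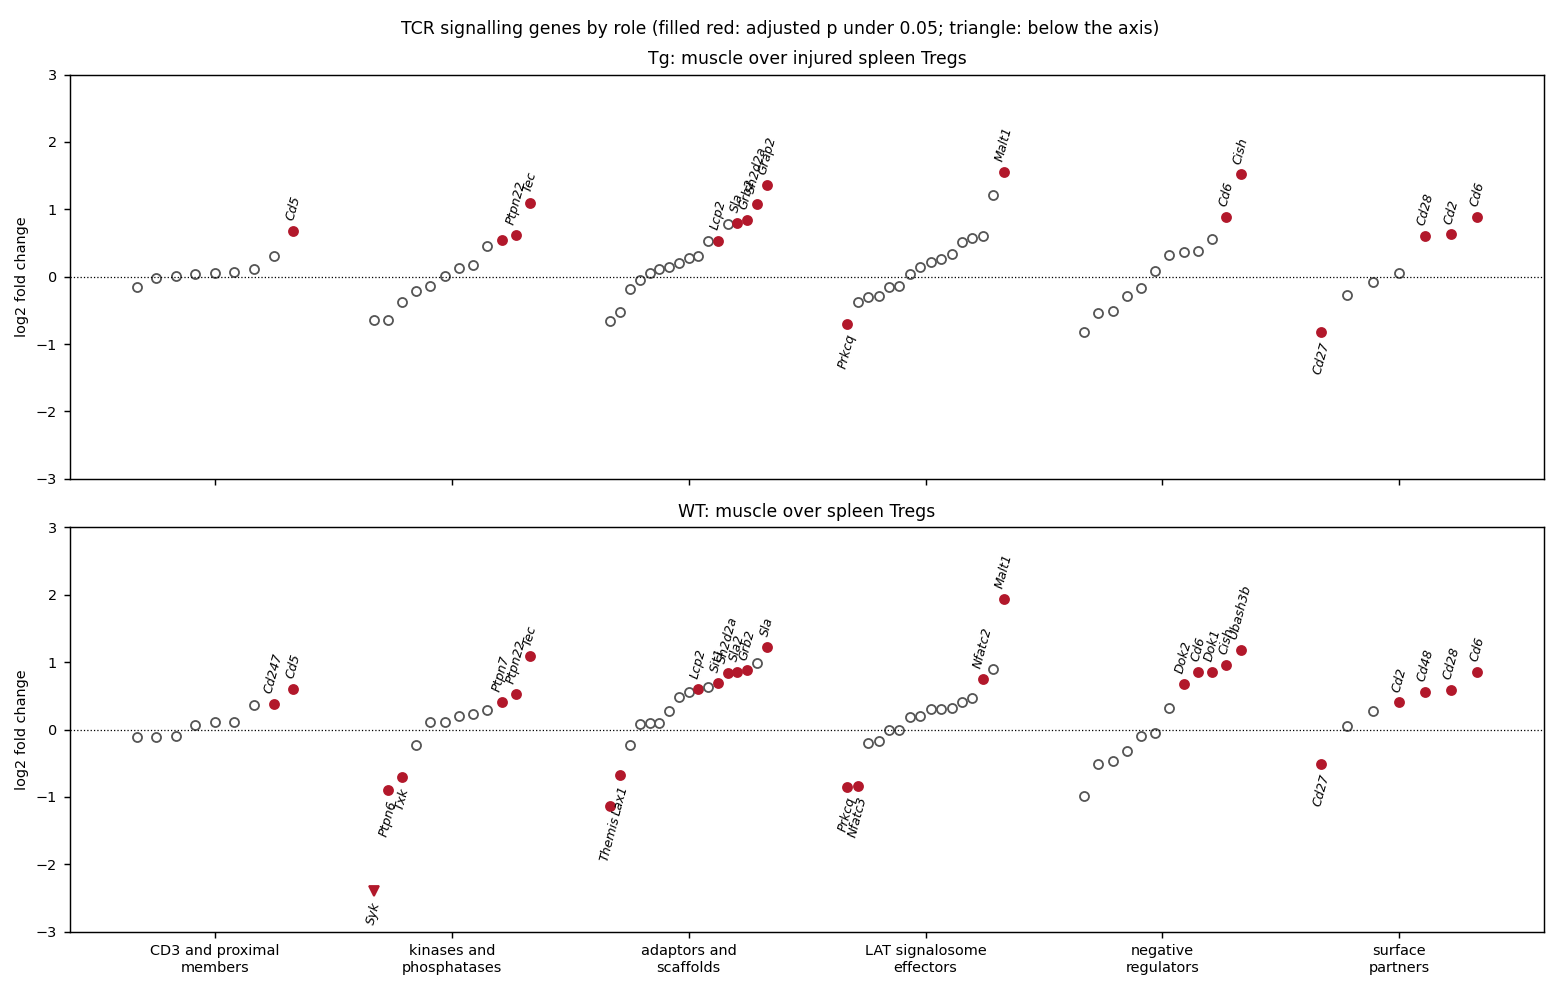
Log2 fold changes (vertical axis) of the 9 genes and the 5 pathway lists, muscle over spleen Tregs, in Tg (top) and WT mice (bottom); filled red points have an adjusted p under 0.05, 1 of them in Tg mice without a name, and Syk in WT mice lies below the axis at -5.43. Most of the 9 genes stand near 0, while Malt1 (1.55 in Tg and 1.94 in WT mice) and Cd6 (0.88 in Tg and 0.85 in WT mice) are high and Prkcq (-0.70 in Tg and -0.85 in WT mice) is low in both.

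Outside the tissue comparisons few pathway genes were called. Over all tested genes 0.318% were called for Tg over WT muscle and 1.3% for injured Tg over WT spleen. For Tg over WT muscle 0 of the 63 genes were called higher and 1 lower: Cd27 had 340 and 315 CPM in Tg muscle against 533 and 544 CPM in WT muscle (fell by 0.72, adjusted p 0.0454 with edgeR). That call was held in 9 of 13 alternatives and lost without either Tg muscle library (adjusted p up to 0.257 over the alternatives). None of the 63 was called for injured Tg over WT spleen, for injured over uninjured Tg spleen, or for the difference between the tissue changes. The largest uncalled changes by list for Tg over WT muscle were those of Syk (3.73), Themis (1.24), Itpr1 (0.77), Cblb (0.58) and Cd6 (0.27).

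Treg markers changed with tissue too, and their levels are given beside the changes of Cd5 and the pathway. Of 8 markers 5 were called higher and 0 lower in Tg muscle (62.5%, against 7.38% of all tested genes). In WT muscle 4 were higher and 1 lower (62.5%, against 16.2% of all). Foxp3, the lineage factor, had 2153 and 2314 CPM in Tg muscle against 1229 and 1166 CPM in injured Tg spleen (0.90 ± 0.13) and rose by 0.68 in WT mice. Ctla4, an inhibitory receptor, rose by 2.25 in both genotypes. Tnfrsf4 (OX40) rose by 1.64 in Tg and by 1.17 in WT mice, and Tnfrsf18 (GITR) rose by 1.37 in Tg and by 1.08 in WT mice. Il2ra, the alpha chain of the IL-2 receptor, rose by 1.52 in Tg mice and was 0.02 ± 0.16 in WT mice. Ikzf4 fell by 0.70 in WT mice and was 0.09 in Tg mice, and Ikzf2 and Il2rb passed in neither (Ikzf2 -0.22 in Tg and -0.32 in WT mice, and Il2rb 0.40 in Tg and -0.01 in WT mice).

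The genes whose pattern over the 10 Treg libraries was most like the mean of the 4 CD3 chains were sought among 7798 genes, by the root mean square difference of log2(CPM + 1) values, each centred on its own mean. TCR and immunoglobulin segments were left out of that ranking, as were genes with a mean log2 CPM under 4. The nearest were G3bp2 (0.05), Ptgr2 (0.06), Oxa1l (0.07), Ap1b1 (0.07) and Metap2 (0.08), against a median of 0.30 over the ranked genes. Of the 9 genes themselves Cd3g (0.05) and Cd3d (0.07) were nearest to that mean and Cd5 (0.29) farthest. Cd3g and Cd3d are themselves part of that mean, so their nearness is partly built in. The 10 points share 5 groups and the scaling, and a flat profile alone gives a small difference.

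In whole muscle 8 days after injury the 9 genes were near the limit of detection, and no difference between genotypes was found. Together they made 12.5, 7.54 and 7.07 CPM by library total in Tg whole muscle against 7.81, 11.8 and 9.42 CPM in WT whole muscle, ranges that overlap. Of the 9, 3 passed the low-count filter. Cd3e had 24, 20 and 8 reads in Tg against 4, 24 and 12 reads in WT whole muscle (0.31 ± 0.71, interval -1.19 to 1.81, adjusted p 0.994 with edgeR). Cd247 had 31, 4 and 5 reads against 34, 22 and 16 reads (-0.91 ± 0.72, interval -2.42 to 0.61, adjusted p 0.994). Zap70 had 0, 12 and 7 reads against 13, 17 and 5 reads (-0.91 ± 0.91, interval -2.84 to 1.02, adjusted p 0.994). All 3 intervals reach beyond 1 log2 unit in at least 1 direction, so a change of that size in that direction is not excluded.

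The other 6 genes were tested 1 by 1 with a two-sided exact permutation test on CPM, which cannot go below p = 0.1 with 3 libraries against 3. Cd3g had 5, 0 and 5 reads in Tg against 0, 0 and 0 reads in WT whole muscle (exact p = 0.4). Lat had 2, 6 and 6 reads against 0, 2 and 4 reads (exact p = 0.2), and Lck had 4, 6 and 5 reads against 2, 7 and 0 reads (exact p = 0.4). Cd4 had 7, 0 and 6 reads against 0, 7 and 3 reads (exact p = 0.8). Cd5 had 3, 1 and 5 reads against 1, 1 and 7 reads, and Cd3d had 0, 0 and 3 reads against 0, 0 and 1 reads (exact p = 1 for both). Adjusted over these 6 tests, p was 0.8 to 1. A count of 0 in a library allows up to 3 reads, and these limits cover counting error only, since amplified reads are not independent molecules.

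The proportions of the chains in whole muscle were set against those of sorted Tregs as shares of each chain's reads plus those of Cd3e, summed over the 3 libraries of a genotype, with exact Clopper-Pearson 95% intervals. Cd3d gave 5.45% in Tg (1.14% to 15.1%) and 2.44% in WT whole muscle (0.0617% to 12.9%), below the 43.4% to 49.9% of the 10 Treg libraries. Cd3g gave 16.1% in Tg (8.02% to 27.7%) and 0 of 40 reads in WT whole muscle (up to 8.81%), below the 38.2% to 45.9% of the Treg libraries. Cd247 gave 43.5% in Tg whole muscle (33.2% to 54.2%), within the 34.7% to 48.0% of the Treg libraries, and 64.3% in WT whole muscle (54.7% to 73.1%), above that range; the difference between the genotypes was not tested. The Tg sum of Cd247 rests on 31 of 40 reads in 1 library. The WT libraries had 34, 22 and 16 reads of Cd247 against 4, 24 and 12 of Cd3e, so the WT share leans most on the first. These intervals take the summed reads as independent and do not measure the spread between libraries. The source of these reads was not tested.

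Of the constant regions of the receptor, Trac and Trbc2 separated the genotypes of whole muscle without overlap, and Trbc1 did not, with 0 reads in each Tg library against 0, 4 and 0 reads in WT. Trac had 477, 464 and 365 reads in Tg against 4, 0 and 1 reads in WT whole muscle (7.84 ± 0.41, adjusted p 2.31e-08 with edgeR). Trbc2 had 46, 47 and 45 reads against 0, 0 and 0 reads (adjusted p 0.00273 with edgeR, held in 12 of 13 alternatives). With 3 reads allowed in each WT library it was at least 14.4-fold higher. The beta segment Trbv13-2, of the Vβ8 family, had 29, 25 and 29 reads against 0 in each WT library (adjusted p 0.0448 with edgeR), at least 8.68-fold higher. Both bounds take the Tg counts as free of error. These 3 and the alpha segment Trav9-4 were the 4 genes called, all higher in Tg, which is 0.0323% of the 12377 genes tested. The constant regions had 8.72, 21.3 and 19.5 times the reads of the 4 CD3 chains in Tg whole muscle, against 0.105, 0.087 and 0.0345 times in WT whole muscle and 2.53 to 4.0 times in the Tg Treg libraries. None of the 44 tested pathway genes was called. Foxp3 had 10 reads over the 3 Tg and 4 reads over the 3 WT libraries.

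**Figure D5:**
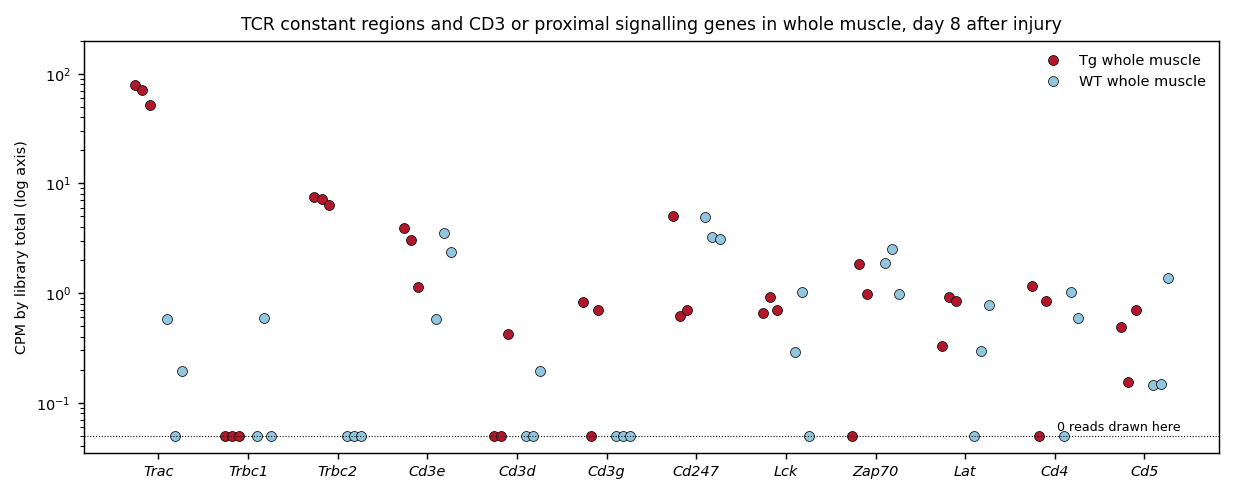
CPM by library total (log axis) of the 3 TCR constant regions and the 9 genes in the 3 Tg (red) and 3 WT (blue) whole muscle libraries, with libraries of 0 reads drawn on the dotted line. Trac and Trbc2 are high in all 3 Tg libraries and at or near 0 in WT, while the 9 genes lie at a few CPM or less in both.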

How the data were processed

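The authors deposited 1 table of read counts per gene for 16 libraries, not normalized; per the submitters' processing notes the tools were STAR 2.5.4 and featureCounts with the build mm10. Per the labels' protocols, RNA was captured with oligo(dT), amplified by PCR and cut with a transposon, which does not mark strand; the annotation is not given in the sources used here.

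From the counts, genes were filtered by filterByExpr, scaled by TMM and tested with edgeR 4.0.16 (R 4.3.3; quasi-likelihood test, robust, Benjamini-Hochberg over all genes, adjusted p under 0.05, no minimum fold). The 10 Treg libraries were fitted together as 5 groups (13188 genes, 5 residual degrees of freedom), and the 6 whole muscle libraries in a fit of their own (12377 genes, 4). SE were derived from the change and its test statistic, and 95% intervals from them. Whole muscle genes below the filter had exact permutation tests. The fit was tested on simulated data. The alternatives were DESeq2 1.42.0, RLE scaling, limma-voom (limma 3.58.1), no filter on low counts, one at 5 CPM, the replicate number as a block, TCR and immunoglobulin genes left out, the compared groups only, each library left out, and library totals in place of TMM. Promoters came from RefSeq (GRCm38.p6), exon lengths from GENCODE M21.

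All 9 genes are reported; a called gene of the kinase list and a set of cell type markers are not reported here. Of each pathway list and comparison, the rule named up to 3 called genes with the largest absolute change and up to 1 uncalled gene. Genes, lists and rules were chosen with earlier results of these data known. Values beyond that rule (Sla, Cish, Grb2, Malt1 or Prkcq in the other genotype, the names of the genes called in both genotypes, and levels) are shown for comparison. Counting intervals cover counting error only.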

Additional observations from a re-analysis of the deposited data

Results flagged for a closer look

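Il2ra, the IL-2 receptor alpha chain, differed between genotypes in its tissue change: the change of Tg mice minus that of WT mice was 1.4992 ± 0.23 on the log2 scale (adjusted p 0.0245 with edgeR's test of the interaction). It passed in 13 of 17 alternatives and was lost with the compared groups only and without either injured Tg spleen library or the second WT spleen library (adjusted p up to 0.145). It had 860.1 and 1261 CPM in Tg muscle against 368 and 370.3 CPM in injured Tg spleen, and 769 and 645 CPM in WT muscle against 637 and 753 CPM in WT spleen. Both tissues entered the difference. The mean was lower in injured Tg than in WT spleen (369.4 against 695.1 CPM) and higher in Tg than in WT muscle (1060.6 against 707.1 CPM). None of the 9 genes met such a test.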

How the results depend on the processing

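Cd5 kept its direction and its call in both tissue comparisons under all alternatives, and no change of sign concerned a called value. Library totals in place of TMM were chosen after seeing the data. The number of genes called in WT mice between tissues was 1046 with the compared groups only, and 887 to 2768 with 1 library left out; in Tg mice it was 452 to 640 with 1 left out. Of the 9 genes, 1 was called in WT mice with RLE scaling, library totals, no filter, the 5 CPM filter or the compared groups only, and 1 to 3 with 1 library left out. For Tg over WT muscle 195 genes were called with no filter, 103 with DESeq2, 14 without TCR and immunoglobulin genes, 10 with the compared groups only and 25 to 361 with 1 library left out. For injured Tg over WT spleen the counts were 372 with no filter, 304 with DESeq2, 338 with the compared groups and 57 to 160 with 1 left out. For spleen injury 5 were called with no filter. For the difference between tissue changes the counts were 140 with no filter, 62 with DESeq2, 4 with the compared groups and 3 to 241 with 1 left out. In whole muscle 11 were called with no filter and 2 with the replicate block. The cause was not tested.

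Signs turned for uncalled values. With library totals, WT tissue changes were -0.089 for Cd3g, -0.163 for Il2ra, -0.081 for Lat and -0.125 for Zap70; Tg ones were -0.130 for Cd3d, -0.195 for Cd4, -0.111 for Ikzf4, -0.141 for Lat, -0.077 for Lck and -0.166 for Zap70; spleen injury gave 0.017 for Lat and 0.011 for Lck. With limma-voom, WT tissue gave -0.008 for Il2ra and 0.000 for Il2rb. With no filter, Il2rb was 0.019 in WT and Cd4 0.000 in Tg mice; Cd4 in Tg mice was -0.003 at 5 CPM and -0.006 with the compared groups only. With 1 library left out, WT tissue ranges were -0.266 to 0.052 for Cd3d, -0.222 to 0.035 for Cd3e, -0.021 to 0.243 for Cd3g, -0.093 to 0.161 for Il2ra, -0.164 to 0.157 for Il2rb, -0.219 to 0.019 for Lck and -0.093 to 0.255 for Zap70. Tg tissue ranges were -0.008 to 0.148 for Cd3d, -0.049 to 0.003 for Cd3g, -0.074 to 0.083 for Cd4, -0.136 to 0.352 for Ikzf4, -0.008 to 0.125 for Lat and -0.151 to 0.243 for Zap70. Tg over WT muscle ranges were -0.152 to 0.105 for Cd3e, -0.015 to 0.249 for Cd3g and -0.013 to 0.225 for Lck, and spleen ones -0.016 to 0.096 for Cd3e, -0.174 to 0.048 for Lat and -0.013 to 0.382 for Zap70. Spleen injury ranges were -0.155 to 0.002 for Cd3d, -0.121 to 0.036 for Cd4, -0.15 to 0.043 for Cd5, -0.127 to 0.097 for Lat, -0.285 to 0.112 for Trbc2 and -0.281 to 0.113 for Zap70. Ranges of the difference between tissue changes were -0.169 to 0.01 for Cd247, -0.194 to 0.064 for Cd3e, -0.035 to 0.157 for Cd5, -0.177 to 0.048 for Lat and -0.228 to 0.168 for Zap70. Cd3e in whole muscle ranged over -0.138 to 0.848.

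With the replicate block, 2081 genes were called between tissues in WT mice and 1009 in Tg mice, and it changed no call of the 9 genes. Libraries with the same number did not deviate together throughout (correlations -0.0379 to 0.11 in Tregs), so the numbers do not show a pairing. With 2 libraries a group and few reads in whole muscle, depth and number limit what could be detected.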
